A study of Mus musculus with 16 samples.

Results

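VEGF and angiopoietin signals pass from secreted ligands to receptors on endothelial cells, and 10 genes of this system were followed on 16 heart arrays. Members were all array probes whose gene name in the array files was Flt1, Kdr, Flt4, Nrp1, Tek, Tie1, Vegfa, Vegfb, Vegfc or Angpt1. This gave 22 of the 41174 probes on the array, 8 for ligands and 14 for receptors. Of these, 17 probes were bright enough to be tested, 8 for 4 ligand genes and 9 for 5 receptor genes, among 16810 tested probes in all.

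RNA came from whole hearts of 12 week old mice matched for strain, in 4 genotype groups of 4 arrays, with 1 biological replicate per array. The groups were double null (MuRF1 -/- MuRF2 -/-), MuRF1 null MuRF2 het (MuRF1 -/- MuRF2 +/-), MuRF1 het MuRF2 null (MuRF1 +/- MuRF2 -/-) and wild type (MuRF1 +/+ MuRF2 +/+). Trim63 encodes MuRF1, a ubiquitin ligase of striated muscle, and Trim55 encodes its relative MuRF2. The labels name no Cre or promoter, and the making of the alleles, the sex of the mice and the strain of the hearts are not stated there. Heart RNA was read in Cy5 against a common Cy3 reference, a pool of whole-pup RNA (C57BL/6, postnatal day 1). Each value below is a log2 ratio of heart over that reference, so 0 means equal signal in both, and a difference of 1 between groups is a change of 2 times. A ratio to this reference does not rank genes by abundance.

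VEGF-A binds the receptor tyrosine kinases FLT1 (VEGFR1) and KDR (VEGFR2). KDR carries most of the growth and permeability signal in endothelial cells, while FLT1 binds VEGF-A tightly with weak kinase output and can act as a decoy. VEGF-B binds FLT1, VEGF-C binds FLT4 (VEGFR3) and KDR, and neuropilin 1 is a co-receptor for VEGF-A. Angiopoietin 1, made by perivascular and other supporting cells, activates TEK (TIE2), and TIE1 is its companion receptor. In the heart, cardiomyocytes are a main source of VEGF-A and VEGF-B, and the receptors lie mostly on the endothelium of the capillaries between the muscle cells.

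The checks of the arrays come first because they bear on every value. Trim63, by its brighter probe, was at -0.72 ± 0.27 in double null hearts, -0.64 ± 0.22 in MuRF1 null MuRF2 het hearts, 1.94 ± 0.21 in MuRF1 het MuRF2 null hearts and 2.63 ± 0.09 in wild type hearts (SD, n = 4 each), so the groups without a functional MuRF1 allele were lowest. Trim55 was not lower in any group without MuRF2: its difference from wild type was 0.37 ± 0.24 in double null hearts (SE, limma adjusted p = 0.279), and 0.44 ± 0.24 where MuRF2 was null and MuRF1 het (limma adjusted p = 0.416). No source states whether its probe lies in the deleted part, so the MuRF2 genotype rests on the labels. Cy5 signal was well above background for 6037 to 14503 probes on double null arrays, 6402 to 15067 on MuRF1 null MuRF2 het arrays, 16129 to 17391 on MuRF1 het MuRF2 null arrays and 15171 to 16664 on wild type arrays. Both MuRF1 null groups thus held the dimmer arrays. Slides 1 and 3 each held 2 double null and 2 wild type arrays, whereas all MuRF1 null MuRF2 het arrays were on slide 2 and all MuRF1 het MuRF2 null arrays on slide 4, and for these groups genotype cannot be told apart from slide. All 11 cardiomyocyte and all 21 endothelial marker genes on the array were above background on at least 4 arrays.

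Receptor transcripts were lower in double null hearts than in wild type hearts. Of the 9 tested receptor probes, 7 fell and none rose, and of the 8 tested ligand probes, 4 fell and none rose, at a limma adjusted p under 0.05 with Benjamini-Hochberg adjustment over all probes. Over all tested probes 11.9% fell and 8.94% rose. All 4 double null arrays lay below all 4 wild type arrays for 7 receptor and 5 ligand probes, against 13.6% of all tested probes, and no member lay wholly above, against 11.3%. The median difference was -0.56 for the receptor probes and -0.33 for the ligand probes, beside -0.0071 for all tested probes. Fold sizes depended on the processing, and the offset of 50 added here to both colours by construction draws the ratios of dim spots towards 0. With the Feature Extraction log ratio the medians were -1.39 for receptor probes, -0.69 for ligand probes and -0.23 for all tested probes. With that ratio fewer receptor probes passed, as 5 receptor and 4 ligand probes fell, where 1902 of all 16810 tested probes fell and 777 rose. By the limma fit used for the counts above, all 17 member differences were below 0. Every tested member probe was above background on all 4 wild type arrays and would have entered the test through that group alone, so these counts and medians are a description and not support. RNA of whole hearts was measured, and fewer endothelial cells and less RNA per cell cannot be told apart.

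**Figure D1:**
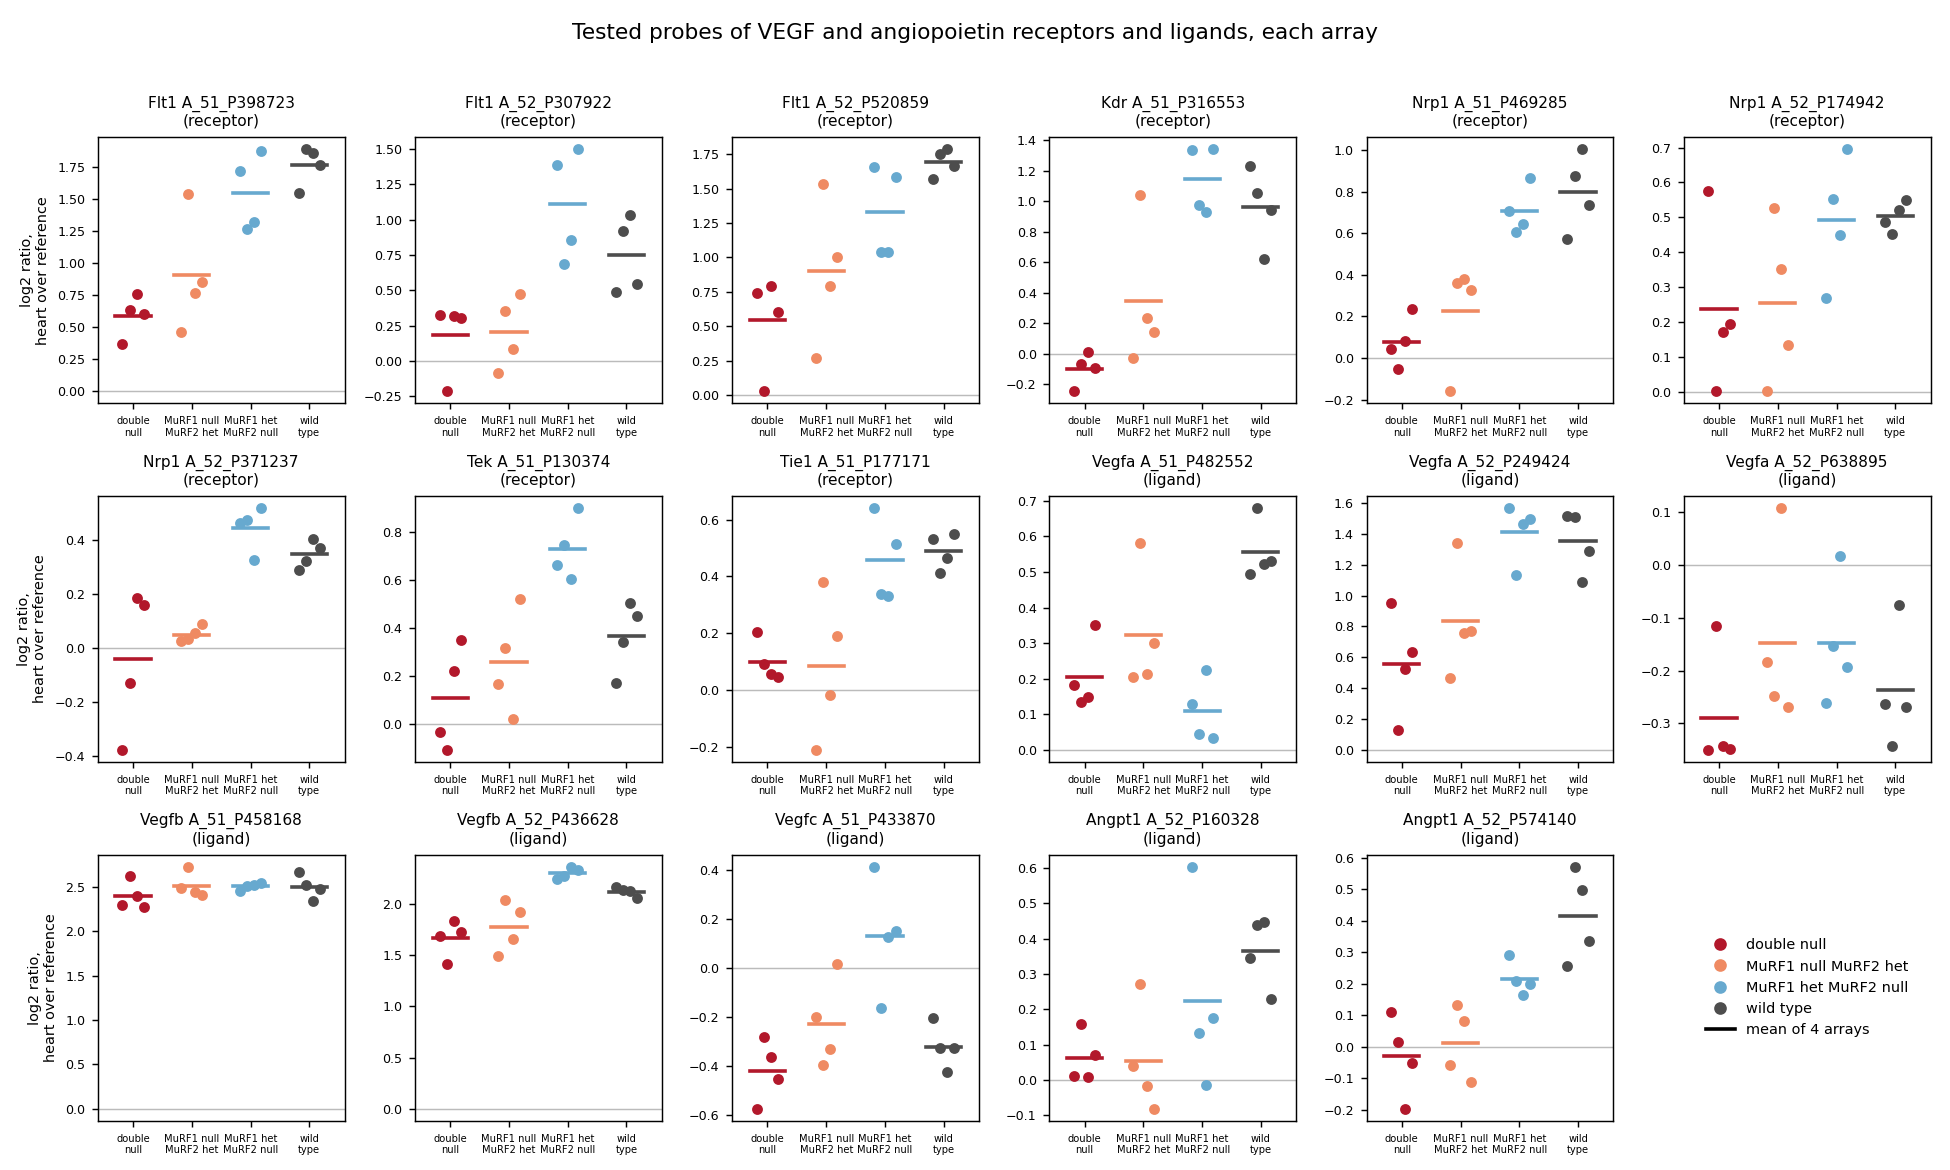
Log2 ratio of heart over reference (y axis) for each of the 17 tested probes, with 1 point per array and a bar at the mean of 4 arrays, for double null, MuRF1 null MuRF2 het, MuRF1 het MuRF2 null and wild type hearts from left to right. For the 3 Flt1 probes and for Kdr, all 4 double null points lie below all 4 wild type points, while Vegfa A_52_P638895 and Vegfb A_51_P458168 overlap in all groups.

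Flt1, the high-affinity VEGF-A and VEGF-B receptor, showed the largest fitted difference among the members above background in double null hearts. Its brightest probe, A_51_P398723, read 0.37, 0.63, 0.76 and 0.60 in double null hearts, 0.46, 1.54, 0.76 and 0.85 in MuRF1 null MuRF2 het hearts, 1.71, 1.26, 1.32 and 1.87 in MuRF1 het MuRF2 null hearts, and 1.55, 1.89, 1.86 and 1.76 in wild type hearts. No double null array reached any wild type array, and the second MuRF1 null MuRF2 het array lay just below the lowest wild type array while its 3 companions lay much lower. The difference of double null from wild type was -1.17 ± 0.19 (SE, adjusted p = 0.000901), a level lower by 2.25 times. In unnormalised Cy5 the spot averaged 260 ± 138 intensity units in double null hearts and 1280 ± 333 in wild type hearts (SD, n = 4 each).

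The array carried 5 Flt1 probes, and the first 30 of the 60 bases of the 3 that were tested are shown. They read different stretches of the transcript, and A_52_P307922 gave a smaller fitted change than the others.
Flt1 A_51_P398723: aagtaaagaaaagctatcgggattctctgg
Flt1 A_52_P520859: cctgtattattccgattttaataatctaat
Flt1 A_52_P307922: caccaagctttgatggcattcaaagatgtc

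Across the 20 pairs of probes for the same member gene, the longest stretch of bases in common was 4 to 7 bases, so none of the probes overlap. Flt1 A_52_P520859 read 0.74, 0.03, 0.80 and 0.61 in double null hearts and 1.57, 1.75, 1.79 and 1.67 in wild type hearts, and fell by 1.15 on the log2 scale (SE 0.23, adjusted p = 0.00331). This probe, designed on the same transcript record as the brightest one, gave nearly the same difference. Flt1 A_52_P307922, designed on a separate cDNA clone, read 0.32, -0.21, 0.32 and 0.31 in double null hearts and 0.49, 0.92, 1.03 and 0.55 in wild type hearts. It passed narrowly (-0.56 ± 0.19, adjusted p = 0.0488), and the call was lost when any of double null 1, 2 or 4 or wild type 2, 3 or 4 was left out (adjusted p up to 0.141). By unnormalised Cy5 it was the dimmest of the 3 tested Flt1 probes (median of 67.4 intensity units). Over 23 other settings its difference ran from -1.39 to -0.26, so the size of its change depended on the setting. The other Flt1 probes, A_52_P405145 and A_52_P650151, were above background on none of the 16 arrays.

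Kdr, the main signalling receptor for VEGF-A, was nearly equal to the pup reference in double null hearts and about 2 times above it in wild type hearts. Its probe A_51_P316553, printed at 10 spots, read -0.24, -0.07, 0.01 and -0.09 in double null hearts, -0.03, 1.04, 0.23 and 0.14 in MuRF1 null MuRF2 het hearts, 1.34, 0.98, 0.93 and 1.34 in MuRF1 het MuRF2 null hearts, and 1.23, 1.05, 0.62 and 0.94 in wild type hearts. Double null and wild type arrays did not overlap, and the second MuRF1 null MuRF2 het array lay within wild type. The difference was -1.06 ± 0.19 (SE, adjusted p = 0.00183), or 2.09 times lower in double null hearts. A second Kdr probe, A_52_P478193, designed on an ovary cDNA and also printed at 10 spots, was above background on no array.

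Nrp1, the neuropilin co-receptor, was read by 3 tested probes, shown here because A_52_P174942 did not pass in double null hearts while the others did. Capitals mark the letters of a polyadenylation signal (AATAAA) in that probe, and any link of these letters to its result was not tested.
Nrp1 A_51_P469285, bases 1 to 30: ttgtggatggtgtaaagttgaaaaaagata
Nrp1 A_52_P371237, bases 1 to 30: atggtgtctggacttatttcagactcccag
Nrp1 A_52_P174942, bases 31 to 60: aatgaaagtcgcactgtcAATAAAggcttt

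Nrp1 A_51_P469285 read 0.05, -0.05, 0.08 and 0.24 in double null hearts and 0.57, 0.87, 1.00 and 0.74 in wild type hearts. The groups stood well apart, and the probe fell by 0.72 (log2, SE 0.12, adjusted p = 0.00132). Nrp1 A_52_P371237 fell by 0.39 (log2, SE 0.10, adjusted p = 0.0161), with -0.38, -0.13, 0.18 and 0.16 in double null hearts and 0.29, 0.32, 0.41 and 0.37 in wild type hearts. It was well above background on 1 of 4 double null arrays and on none of the 4 MuRF1 null MuRF2 het arrays. Nrp1 A_52_P174942, designed on a thymus cDNA clone, read 0.58, 0.0042, 0.17 and 0.20 in double null hearts and 0.49, 0.45, 0.52 and 0.55 in wild type hearts. There the first double null array lay above wild type and the other 3 below it, and the difference of -0.27 ± 0.13 did not pass (adjusted p = 0.144).

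Among the angiopoietin receptors, Tie1 fell and Tek did not pass. Tie1 read 0.20, 0.09, 0.06 and 0.05 in double null hearts, -0.21, 0.38, -0.02 and 0.19 in MuRF1 null MuRF2 het hearts, 0.64, 0.34, 0.33 and 0.51 in MuRF1 het MuRF2 null hearts, and 0.53, 0.41, 0.47 and 0.55 in wild type hearts. No double null array overlapped wild type, and the difference was -0.39 ± 0.11 (SE, adjusted p = 0.0215). It was no longer called without double null 4 (adjusted p = 0.0528) or without wild type 4 (adjusted p = 0.0572). Tek, the angiopoietin 1 receptor, read -0.03, -0.11, 0.22 and 0.35 in double null hearts and 0.17, 0.34, 0.50 and 0.45 in wild type hearts. Its groups overlapped, with a difference of -0.26 ± 0.12 (adjusted p = 0.137), and a second Tek probe, A_52_P234087, was above background in the heart channel on no array. Tie1 and Tek lie on chromosome 4 like Trim63, at 15.8 and 39.4 megabases from it in the GRCm38.p6 annotation; the part of this linkage in their values was not tested.

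Flt4, the lymphatic receptor for VEGF-C, was above background on no array in either colour, by its single probe. Its level in these hearts was not detectable at this signal, and no comparison was made.

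The 3 Vegfa probes, all designed on the same transcript record, gave different results, and the first 30 bases of 2 of them are shown to mark that they read separate stretches.
Vegfa A_51_P482552: actggattcgccattttcttatatctgctg
Vegfa A_52_P638895: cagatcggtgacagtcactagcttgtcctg

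Vegfa A_52_P249424 read 0.95, 0.13, 0.53 and 0.63 in double null hearts, 0.47, 1.34, 0.76 and 0.77 in MuRF1 null MuRF2 het hearts, 1.57, 1.13, 1.47 and 1.49 in MuRF1 het MuRF2 null hearts, and 1.52, 1.51, 1.09 and 1.29 in wild type hearts. It followed the receptors: the double nulls lay below wild type without overlap, and it fell by 0.79 (log2, SE 0.18, adjusted p = 0.0083). Vegfa A_51_P482552, printed at 10 spots, read 0.18, 0.13, 0.15 and 0.35 in double null hearts, 0.20, 0.58, 0.21 and 0.30 in MuRF1 null MuRF2 het hearts, 0.13, 0.04, 0.23 and 0.03 in MuRF1 het MuRF2 null hearts, and 0.49, 0.68, 0.52 and 0.53 in wild type hearts. It fell by 0.35 in double null hearts (log2, SE 0.09, adjusted p = 0.014), and here all 4 wild type arrays stood above all arrays of the other groups but the second MuRF1 null MuRF2 het array. In double null 4, 1 of its 10 spots had a Cy5 intensity of 4260 against 65.4 to 92.5 for the other 9; with the median over spots that array read 0.10 in place of 0.35.

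Vegfa A_52_P638895, the brightest of the 3 on average by normalised Cy5 though not by unnormalised Cy5, read -0.35, -0.12, -0.34 and -0.35 in double null hearts and -0.26, -0.34, -0.08 and -0.27 in wild type hearts. The groups overlapped, with a difference of -0.05 ± 0.10 (adjusted p = 0.727). Over the 16 arrays, A_51_P482552 correlated with A_52_P249424 at r = 0.334 and with A_52_P638895 at r = -0.239, and A_52_P249424 with A_52_P638895 at r = -0.0688. The 3 Flt1 probes, by contrast, correlated at r = 0.78 to 0.923. These coefficients describe arrays that share groups, and carry no test. No source states which transcript variants each Vegfa probe detects, and a single value for Vegfa is not reported.

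Vegfb, the FLT1 ligand abundant in heart muscle, also differed between its probes.
Vegfb A_51_P458168, bases 1 to 30: atgataactgtgacacacacacacactcac
Vegfb A_52_P436628, bases 1 to 30: tgcttttatggccctgcttcacagggagaa

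Vegfb A_51_P458168, which holds a run of repeated CA, read 2.29, 2.62, 2.39 and 2.27 in double null hearts and 2.66, 2.52, 2.34 and 2.48 in wild type hearts, a difference of -0.11 ± 0.10 that did not pass (adjusted p = 0.437). Vegfb A_52_P436628 read 1.69, 1.41, 1.83 and 1.72 in double null hearts, 1.49, 2.04, 1.66 and 1.92 in MuRF1 null MuRF2 het hearts, 2.24, 2.27, 2.36 and 2.33 in MuRF1 het MuRF2 null hearts, and 2.16, 2.13, 2.13 and 2.06 in wild type hearts. All arrays of both groups without MuRF1 lay below wild type, and in double null hearts it fell by 0.46 (log2, SE 0.11, adjusted p = 0.0106). Its ratio correlated with the number of probes above background on the array at r = 0.934 over 16 arrays, the highest of the members. With that number as a covariate the difference was -0.19 and did not pass (adjusted p = 0.14), while without the 2 dimmest arrays it was -0.37 and passed (adjusted p = 0.00565).

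Vegfc, the ligand of FLT4, showed no call in either group without MuRF1. It read -0.58, -0.28, -0.36 and -0.46 in double null hearts, -0.20, -0.40, -0.33 and 0.02 in MuRF1 null MuRF2 het hearts, 0.42, -0.17, 0.13 and 0.15 in MuRF1 het MuRF2 null hearts, and -0.21, -0.33, -0.43 and -0.33 in wild type hearts. Only the MuRF1 het MuRF2 null arrays stood above wild type, and without overlap, yet the difference of 0.46 ± 0.12 did not pass (adjusted p = 0.0613).

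Angpt1, the TEK agonist, was dim, and the pup reference was above background for neither of its probes on any array. Its probe A_52_P574140 was well above background on the 4 wild type arrays and on none of the other 12, and A_52_P160328 on the 4 wild type arrays and 2 of the MuRF1 het MuRF2 null arrays. A_52_P574140 read 0.11, 0.02, -0.20 and -0.05 in double null hearts, -0.06, 0.13, 0.08 and -0.11 in MuRF1 null MuRF2 het hearts, 0.29, 0.21, 0.16 and 0.20 in MuRF1 het MuRF2 null hearts, and 0.25, 0.57, 0.50 and 0.34 in wild type hearts. Since the dimmer groups give only a bound, it was at least 1.12-fold lower in double null hearts (adjusted p of the fitted difference = 0.00364) and at least 1.14-fold lower in MuRF1 null MuRF2 het hearts (adjusted p = 0.041) than in wild type. A_52_P574140 entered the test only through its wild type arrays, so these limma p-values are a description and not support. The bound sets the mean of the 4 wild type arrays against, on each dim array, the higher of the lowest Cy5 signal among probes above background and the probe's own signal. A_52_P160328 was at least 1.07-fold lower in double null hearts, and its fitted difference did not pass (adjusted p = 0.0699).

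Within slide 1 the double null minus wild type difference of the brightest Flt1 probe was -1.22 and within slide 3 it was -1.13; for Kdr the values were -1.30 and -0.82, and for Nrp1 A_51_P469285 -0.73 and -0.71. Every member difference had the same sign on both slides except that of Vegfa A_52_P638895 (0.07 on slide 1 and -0.17 on slide 3). With the number of Cy5 probes above background as a covariate, 4 receptor probes and 1 ligand probe still passed by limma with Benjamini-Hochberg adjustment. The receptor probes were Flt1 A_51_P398723 (-0.91, adjusted p = 0.00748), Flt1 A_52_P520859 (-0.61, adjusted p = 0.0246), Kdr (-0.84, adjusted p = 0.0156) and Nrp1 A_51_P469285 (-0.51, adjusted p = 0.0124). The ligand probe was Angpt1 A_52_P574140 (adjusted p = 0.0155), which gives a bound only and no support, as above.

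MuRF1 null MuRF2 het hearts, which keep 1 MuRF2 allele, gave fewer calls. Here 2 of 9 receptor probes and 1 of 8 ligand probes fell and none rose, where 0.845% of all tested probes fell and 0.303% rose. The arrays lay wholly below wild type for 6 receptor and 2 ligand probes, against 6.47% of all tested probes, and wholly above it for none, against 5.81%. Flt1 A_51_P398723 fell by 0.86 (log2, SE 0.19, adjusted p = 0.0395) and Nrp1 A_51_P469285 by 0.57 (SE 0.12, adjusted p = 0.0385). The third call was the Angpt1 probe A_52_P574140, given above as a bound and not as support. Kdr was at -0.62 ± 0.19 from wild type (adjusted p = 0.101) and Tie1 at -0.41 ± 0.11 (adjusted p = 0.0734). All 9 receptor differences and 5 of the 8 ligand differences were below 0, and their medians were -0.54 and -0.27, beside -0.0089 over all tested probes. Replicate 2 of this group lay at or near wild type for many members: it read 1.54 for Flt1 A_51_P398723, 1.04 for Kdr and 1.34 for Vegfa A_52_P249424, and it was also the brightest array of the group, with 15067 probes above background. Without it, 5 receptor and 5 ligand probes fell, but calls rose over the whole array. There 1101 of all 16810 tested probes fell and 889 rose, against 142 and 51 with all arrays. With any other single array of either group left out, the receptor count was 0 or 1.

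MuRF1 het MuRF2 null hearts, which keep 1 MuRF1 allele, did not show the receptors lower. None of the 9 receptor probes passed in either direction by limma, and at an unadjusted p under 0.05 none was lower and 1, Tek, was higher (0.36 ± 0.12, adjusted p = 0.149). Of the ligand probes only Vegfa A_51_P482552 fell (-0.45 ± 0.09, adjusted p = 0.0199), with all 4 arrays below all 4 wild type arrays, and the call was lost when MuRF1 het MuRF2 null 1, 2 or 4 or wild type 2 or 4 was left out (adjusted p = 0.057 to 0.0808). In the Cy5 channel alone, without the reference, its difference was -0.04 (adjusted p = 0.93). Over all tested probes 1.11% fell and 0.571% rose. This ligand probe alone lay wholly below wild type, against 10.8% of all tested probes. Tek, Vegfc and Vegfb A_52_P436628 lay wholly above it without passing, against 8.81%. The other Vegfa probes were at 0.06 ± 0.18 and 0.09 ± 0.10 from wild type and did not pass. The median difference was -0.0114 for receptor probes and 0.04 for ligand probes, beside -0.0028 over all tested probes. These 4 arrays were alone on slide 4 and were read with Feature Extraction 9.5.3.1 rather than 9.1.3.1.

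**Figure D2:**
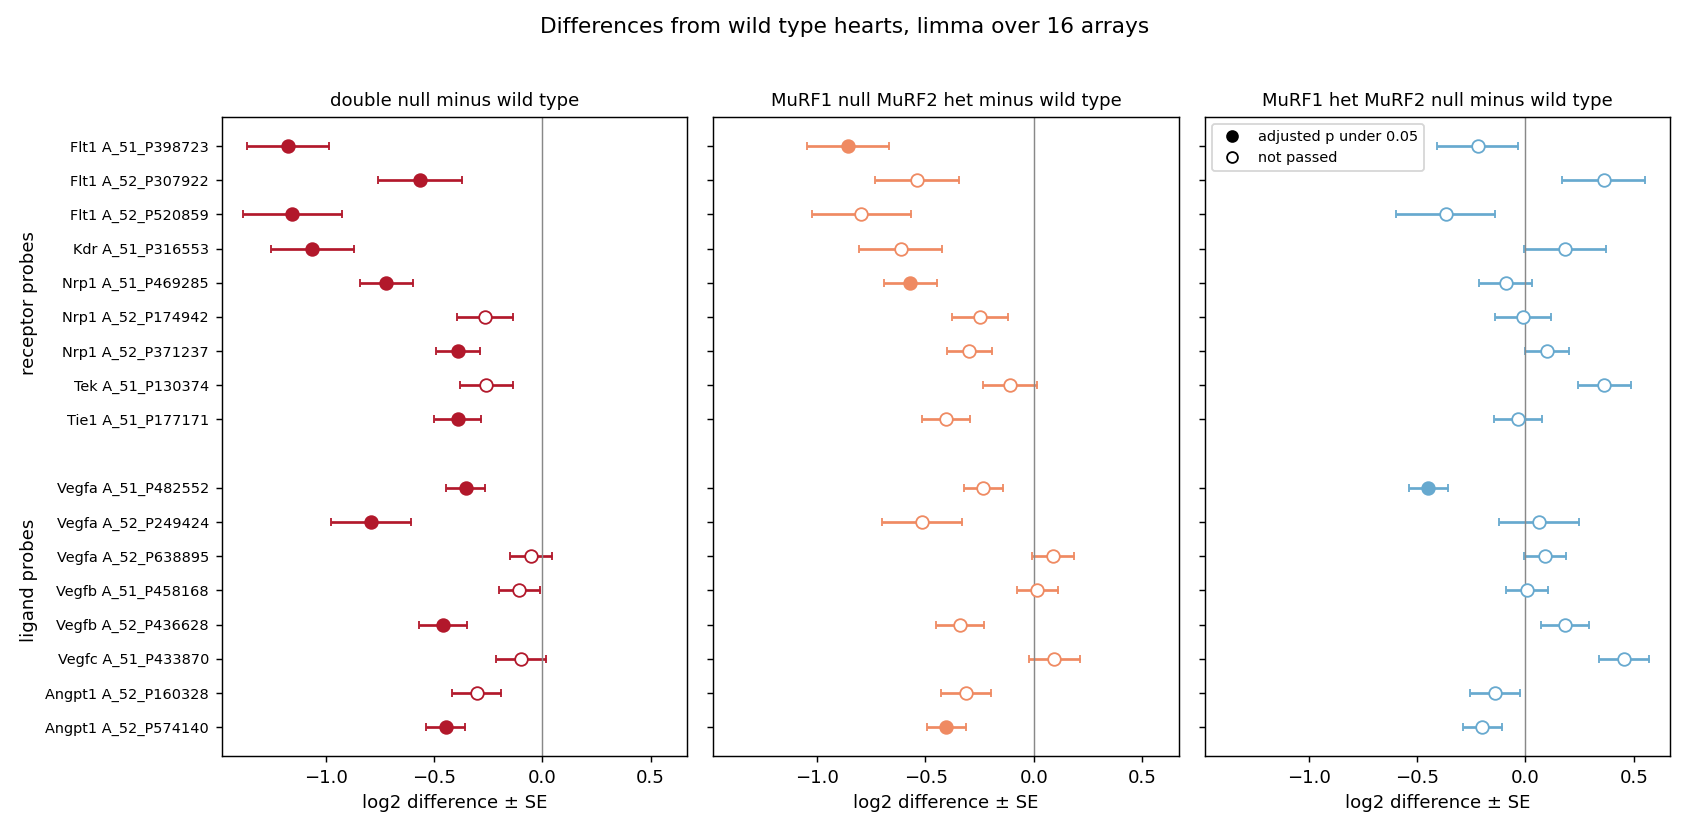
Difference in log2 ratio from wild type hearts (x axis, bars are standard errors from limma over 16 arrays) for the 9 receptor and 8 ligand probes in hearts of the double null, the MuRF1 null MuRF2 het and the MuRF1 het MuRF2 null groups. Filled points passed an adjusted p of 0.05: 11 in double null hearts, 3 in MuRF1 null MuRF2 het hearts and 1 in MuRF1 het MuRF2 null hearts, all of them lower than wild type.

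The mutant groups were also set against each other. Between double null and MuRF1 null MuRF2 het hearts, which differ by 1 MuRF2 allele, no member passed by limma, and at an unadjusted p under 0.05 only Kdr did (-0.45 ± 0.19, adjusted p = 0.485). Over all tested probes 0.131% fell and 0.113% rose in that comparison. No member was without overlap, where 1.45% of all tested probes lay wholly below and 1.21% wholly above. Between double null and MuRF1 het MuRF2 null hearts, 8 of 9 receptor probes and 3 of 8 ligand probes fell and none rose, where 13.3% of all tested probes fell and 12.2% rose. There 8 receptor and 4 ligand probes lay wholly below, against 13.9% of all tested probes, and none wholly above, against 14%. Kdr fell there by 1.24 (log2, SE 0.19, adjusted p = 0.000512), Tek by 0.62 (SE 0.12, adjusted p = 0.00253), Flt1 A_51_P398723 by 0.95 (SE 0.19, adjusted p = 0.00251) and Vegfc by 0.55 (SE 0.12, adjusted p = 0.00373). When MuRF1 null MuRF2 het hearts were set against MuRF1 het MuRF2 null hearts, 7 receptor probes and 1 ligand probe fell and none rose, where 4.33% of all tested probes fell and 4.27% rose. There 4 receptor and 2 ligand probes lay wholly below, against 8.88% of all tested probes, and none wholly above, against 10.7%. Tek fell by 0.47 (log2, SE 0.12, adjusted p = 0.0294), Kdr by 0.80 (SE 0.19, adjusted p = 0.0214) and Vegfb A_52_P436628 by 0.52 (SE 0.11, adjusted p = 0.0133). The 7 receptor calls became 0 without MuRF1 het MuRF2 null 1, 1 without number 4 and 2 without number 2 of that group. They became 1 when MuRF1 null MuRF2 het 1 was left out, 2 when its number 3 was and 4 when its number 4 was. The 3 comparisons that involve double null hearts share those arrays, and both comparisons with MuRF1 het MuRF2 null hearts cannot be told apart from slide 4.

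By group mean, Flt1 A_51_P398723 was ordered double null, MuRF1 null MuRF2 het, MuRF1 het MuRF2 null, wild type from low to high. Neither the first pair nor the last pair of neighbours passed (adjusted p = 0.68 and 0.64). The middle pair passed narrowly (adjusted p = 0.0465) although its arrays overlapped, and that call was lost under 16 of 21 other settings (adjusted p up to 0.286). Kdr had the same order except that MuRF1 het MuRF2 null stood above wild type, by 0.18 ± 0.19 (adjusted p = 0.717). Tek was highest in MuRF1 het MuRF2 null hearts at 0.73 ± 0.13, followed by wild type at 0.37 ± 0.15, MuRF1 null MuRF2 het at 0.26 ± 0.21 and double null at 0.11 ± 0.21 (SD, n = 4 each).

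Ligands were then set beside receptors within each array. The median over the 9 receptor probes was -0.05 to 0.24 in double null, 0.0022 to 0.38 in MuRF1 null MuRF2 het hearts, 0.64 to 0.90 in MuRF1 het MuRF2 null and 0.53 to 0.87 in wild type hearts. The median over the 8 ligand probes was 0.08 to 0.21 in double null, 0.12 to 0.43 in MuRF1 null MuRF2 het hearts, 0.17 to 0.51 in MuRF1 het MuRF2 null and 0.42 to 0.63 in wild type hearts. Receptor medians of the groups without a functional MuRF1 allele thus did not overlap those of the groups with one, whereas ligand medians of all mutant groups reached down to 0.17 or less and only double null lay wholly below wild type. Array brightness split the arrays at the same place. Cy5 probes above background numbered at most 15067 without a functional MuRF1 allele and at least 15171 with one. The part of brightness in the receptor medians was not tested. The endothelial marker median followed the receptors, at 0.05 ± 0.04 in double null hearts, 0.18 ± 0.13 in MuRF1 null MuRF2 het hearts, 0.41 ± 0.09 in MuRF1 het MuRF2 null hearts and 0.41 ± 0.04 in wild type hearts (SD, n = 4 each). Medians over members were chosen for display and carry no test.

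**Figure D3:**
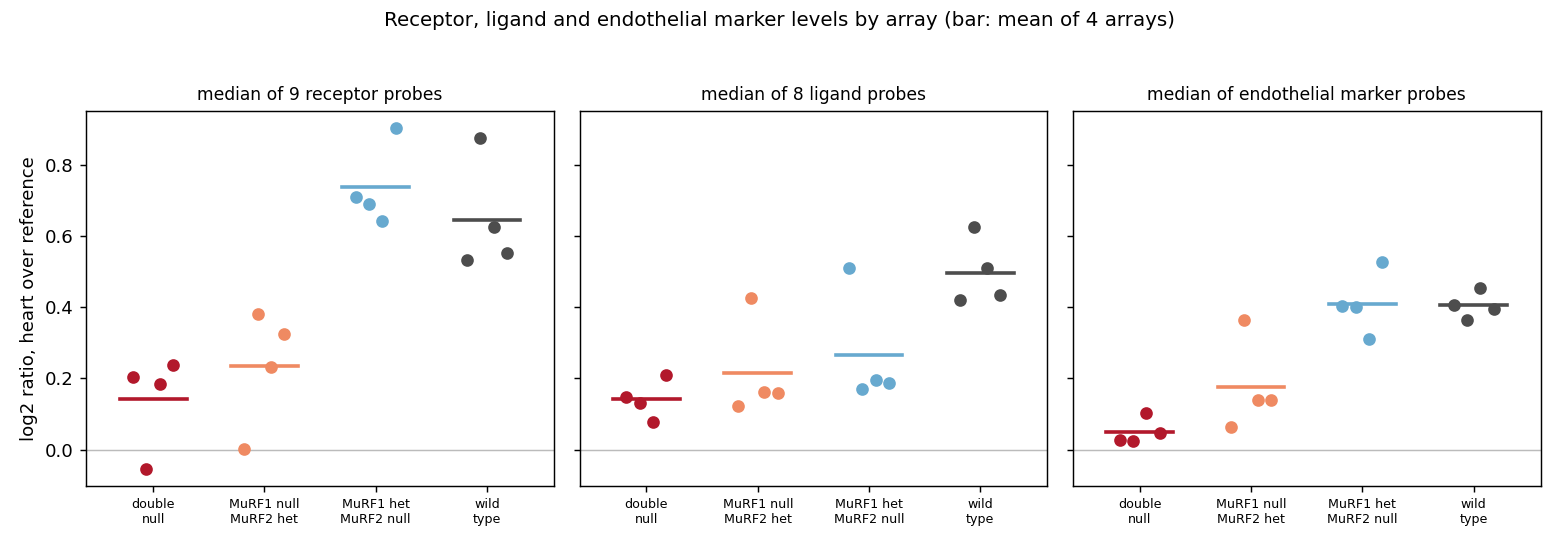
Median log2 ratio per array (y axis) over the 9 tested receptor probes, the 8 tested ligand probes and the tested endothelial marker probes, 1 point per array with a bar at the mean of 4, for double null, MuRF1 null MuRF2 het, MuRF1 het MuRF2 null and wild type hearts. Receptor medians of both groups without MuRF1 do not exceed 0.38, while those of the other groups start at 0.53. All arrays of the groups without MuRF1 were also dimmer, by number of Cy5 probes above background, than those of the other groups.

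Differences between a ligand and its receptor in the same array remove what the array does to both probes alike, but not what it does to them unequally. They were taken on the tested probe of each gene with the highest mean normalised Cy5, and since ratios of separate probes are not comparable as levels, only their shift between groups is read. Vegfa minus Kdr was -0.36 to -0.05 in double null, -1.29 to -0.12 in MuRF1 null MuRF2 het hearts, -1.60 to -0.91 in MuRF1 het MuRF2 null and -1.49 to -0.70 in wild type hearts. All double null arrays lay above all wild type arrays for this pair, where Kdr fell and this Vegfa probe did not pass the test. Vegfa minus Flt1 averaged -0.88 ± 0.18 in double null and -2.00 ± 0.18 in wild type hearts, and Vegfb minus Flt1 1.81 ± 0.18 in double null and 0.74 ± 0.27 in wild type hearts (SD, n = 4 each). These values rest on Vegfa A_52_P638895 and Vegfb A_51_P458168, and the other probes of both ligands fell in double null hearts. By normalised Cy5, A_52_P638895 was barely brighter than A_51_P482552 (means of 7.77 and 7.74, log2), and by unnormalised Cy5 the order was reversed (medians of 151 and 171 intensity units), so the other Vegfa probes were also tried, after the data were seen. With A_51_P482552, Vegfa minus Flt1 was -0.61 to -0.18 in double null and -1.33 to -1.05 in wild type hearts, again without overlap. With A_52_P249424 it was -0.50 to 0.59 in double null and -0.77 to -0.03 in wild type hearts, and the groups overlapped. Vegfa minus Kdr on A_51_P482552 was 0.13 to 0.44 in double null and -0.74 to -0.10 in wild type hearts, without overlap. On A_52_P249424 it was 0.20 to 1.20 in double null and 0.29 to 0.46 in wild type hearts, and the groups overlapped. The number of Cy5 probes above background correlated at r = 0.76 with Kdr and 0.773 with Flt1 A_51_P398723. For the ligand probes r was -0.1 with Vegfa A_52_P638895, 0.247 with A_51_P482552, 0.842 with A_52_P249424 and 0.0568 with Vegfb A_51_P458168. Unequal ties to array brightness thus remain in these pairs, and the part of brightness in their shifts was not tested.

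Angpt1 minus Tek is not given because Angpt1 was below background on 12 of the 16 arrays. Vegfc minus Flt4 could not be given because Flt4 was not detected.

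**Figure D4:**
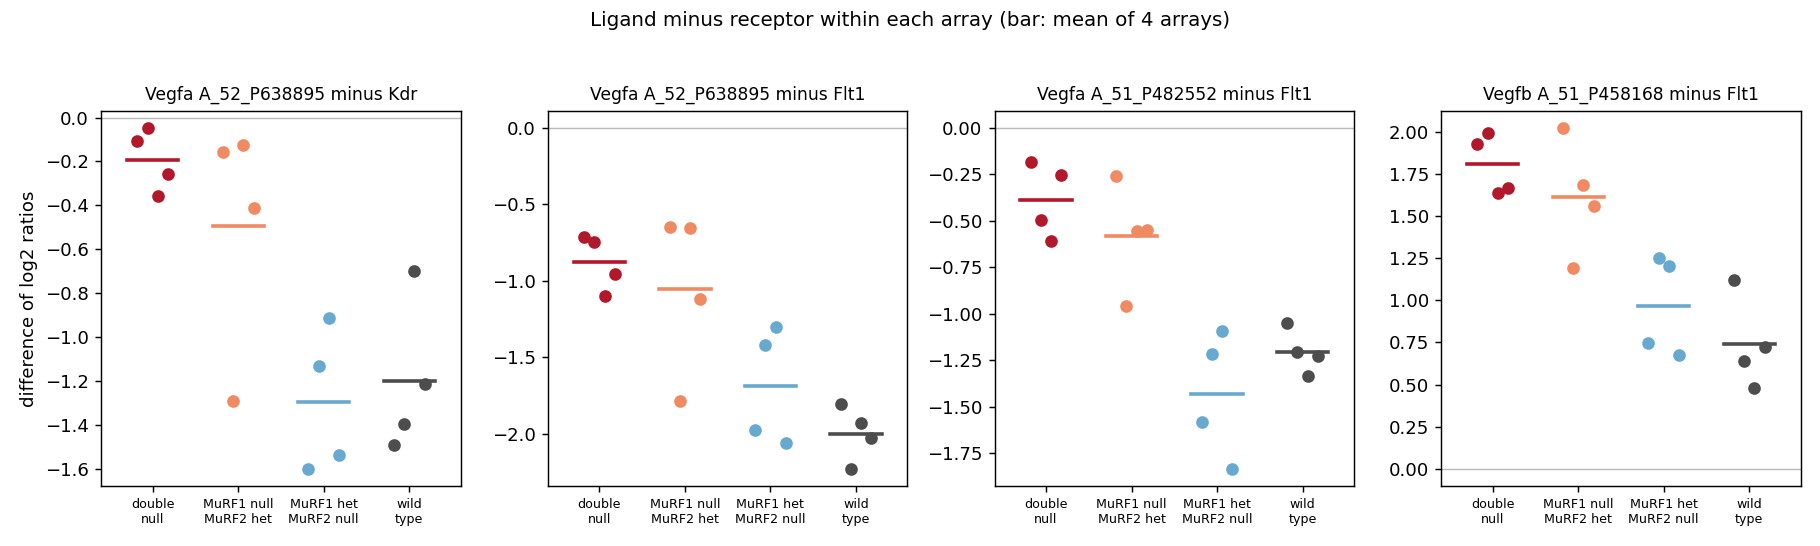
Difference of log2 ratios within each array (y axis) for Vegfa A_52_P638895 minus Kdr, Vegfa A_52_P638895 minus Flt1, Vegfa A_51_P482552 minus Flt1 and Vegfb A_51_P458168 minus Flt1, 1 point per array and a bar at the mean of 4, for double null, MuRF1 null MuRF2 het, MuRF1 het MuRF2 null and wild type hearts. In all 4 panels the double null points lie above all wild type points. Pairs with Vegfa A_52_P249424, in which these groups overlapped, are not drawn. The part of array brightness in these differences was not tested.

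Across the 16 arrays the receptor probes moved together more closely than the ligand probes did. Pearson's r had a median of 0.778 over 36 pairs of receptor probes (0.38 to 0.923), 0.227 over 28 pairs of ligand probes (-0.419 to 0.891) and 0.535 over 72 pairs of a ligand and a receptor probe (-0.15 to 0.898). All pairs share arrays, groups and array brightness, and some share a gene, so the coefficients are a description. The receptor probes correlated with the number of Cy5 probes above background at r = 0.703 to 0.852, while among the ligand probes this r ran from -0.1 for Vegfa A_52_P638895 to 0.934 for Vegfb A_52_P436628. The part of array brightness in the correlations between members was not tested.

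**Figure D5:**
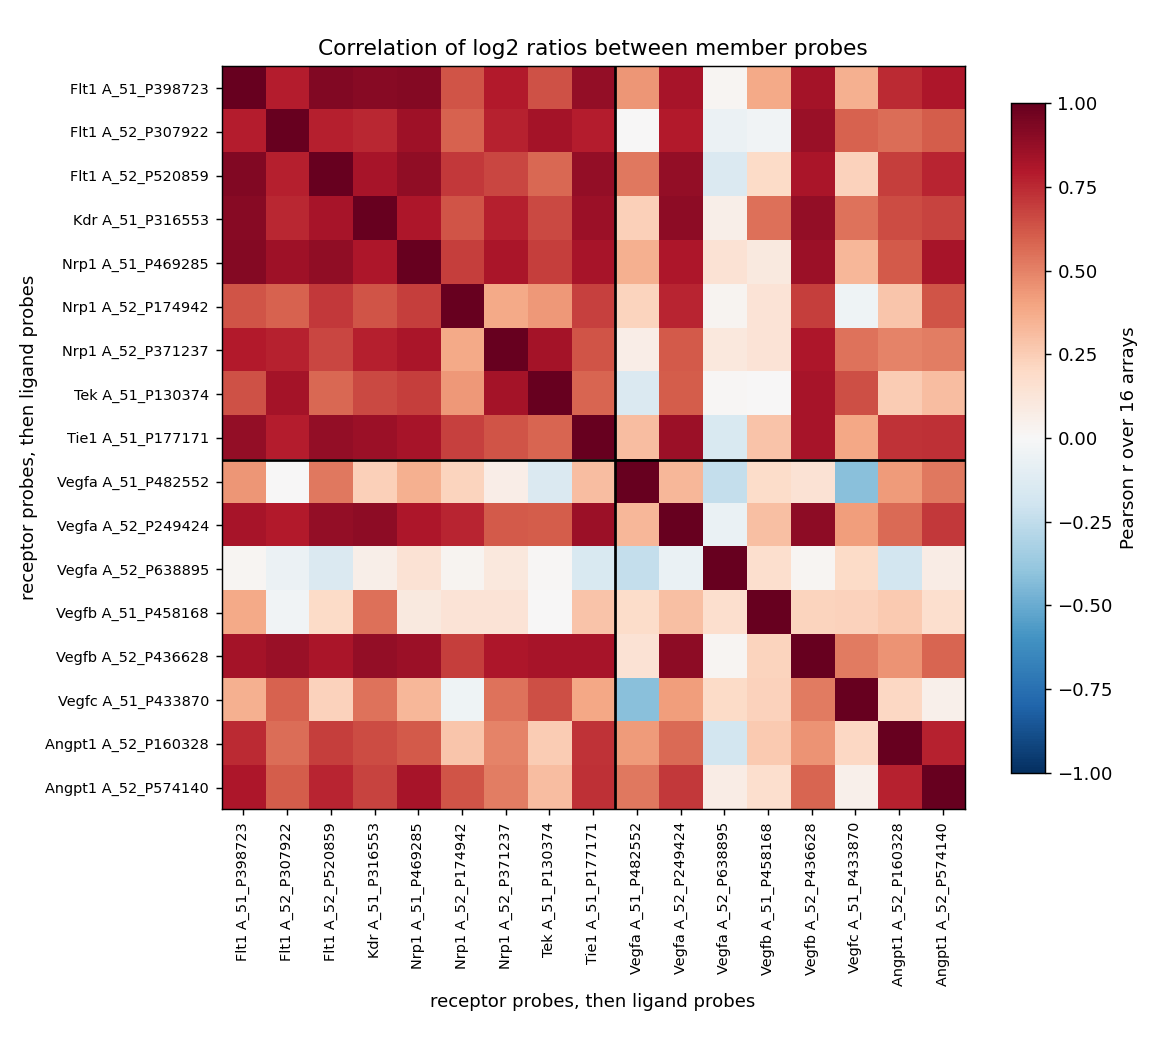
Pearson r of log2 ratios over 16 arrays between the 17 tested member probes (both axes, receptor probes first and ligand probes after the black line), blue for negative and red for positive. The receptor block is red throughout, with r of at least 0.38, while the row of Vegfa A_52_P638895 is pale, with r of -0.239 to 0.19.

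Related genes of the same system were counted next, as probes that passed in the limma test. In double null against wild type hearts, 11.9% of all tested probes fell and 8.94% rose. Against wild type, 0.845% fell and 0.303% rose in MuRF1 null MuRF2 het hearts, and 1.11% fell and 0.571% rose in MuRF1 het MuRF2 null hearts. The counts of each list are to be read beside the shares of the same comparison. Of 6 tested probes of other VEGF and angiopoietin ligands and receptors, 2 rose and 1 fell in double null hearts against wild type, with a median of -0.06. Figf, which encodes VEGF-D, rose by 0.41 (log2, SE 0.09, adjusted p = 0.00459), Angpt2, the antagonist ligand of TEK, rose by 0.26 (SE 0.07, adjusted p = 0.0209), and Nrp2, a co-receptor for VEGF-C, fell by 0.57 (SE 0.17, adjusted p = 0.0263). None of these 6 probes passed by limma in the other groups against wild type; at an unadjusted p under 0.05, 2 were higher and 1 lower in MuRF1 null MuRF2 het hearts, and 3 higher and 0 lower in MuRF1 het MuRF2 null hearts.

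Among 40 tested probes of signalling partners of the VEGF and TIE receptors, 3 rose and 10 fell in double null hearts (median -0.13). Ptprb, the endothelial receptor phosphatase that acts on TEK and KDR, fell by 1.32 (log2, SE 0.19, adjusted p = 0.000448) and also fell in MuRF1 null MuRF2 het hearts, by 1.04 (SE 0.19, adjusted p = 0.02). Pik3r1, a regulatory subunit of PI3 kinase, fell in both as well, by 0.70 (SE 0.11, adjusted p = 0.000718) and 0.48 (SE 0.11, adjusted p = 0.0425). Hspb1, a small heat shock protein phosphorylated downstream of KDR, rose by 0.90 in double null hearts (SE 0.13, adjusted p = 0.000448). Of these probes 1 fell in MuRF1 het MuRF2 null hearts, that of the kinase Mapk3, by 0.36 (SE 0.08, adjusted p = 0.0334).

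Of 26 tested probes for Notch and vessel patterning genes, 7 fell and none rose in double null hearts (median -0.05). Endoglin, Eng, a TGF-beta co-receptor of endothelium, fell by 0.65 (log2, SE 0.10, adjusted p = 0.000901), the endothelial Notch receptor Notch4 by 0.86 (SE 0.14, adjusted p = 0.0012) and the peptide ligand Apln by 0.49 (SE 0.13, adjusted p = 0.016). In MuRF1 null MuRF2 het hearts 3 fell, Notch4, Eng and Heyl, and in MuRF1 het MuRF2 null hearts 1 rose, Esm1, by 0.58 (SE 0.10, adjusted p = 0.0103).

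Hypoxia-inducible factors and their targets, which include the usual inducers and co-targets of Vegfa, held few calls. Of 28 tested probes, 3 rose and 5 fell in double null hearts, near the shares of all tested probes, with a median of 0.07. Hexokinase 2, Hk2, fell by 1.12 (log2, SE 0.21, adjusted p = 0.00233), the oxygen sensor Egln3 fell by 0.56 (SE 0.12, adjusted p = 0.00622) and the collagen hydroxylase P4ha1 rose by 0.61 (SE 0.14, adjusted p = 0.00921). None of these probes passed by limma in MuRF1 null MuRF2 het hearts (1 higher and 4 lower at an unadjusted p under 0.05), and 2 fell in MuRF1 het MuRF2 null hearts, Pgk1 and Bnip3.

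Endothelial markers were also counted, and Eng, Esm1 and Robo4 each stand in both the patterning and the endothelial list. Of 27 tested endothelial probes, 16 fell and none rose in double null hearts (median -0.35), among them Sox18 (-0.74 ± 0.12, adjusted p = 0.00114) and Vwf (-0.74 ± 0.13, adjusted p = 0.00189). The mean over these 27 probes ran from -0.02 to 0.11 on double null arrays, 0.08 to 0.32 on MuRF1 null MuRF2 het arrays, 0.16 to 0.49 on MuRF1 het MuRF2 null arrays and 0.27 to 0.48 on wild type arrays. In MuRF1 null MuRF2 het hearts 2 of the 27 fell and none rose, where 0.845% of all tested probes fell. In MuRF1 het MuRF2 null hearts none fell and 1 rose, where 0.571% of all tested probes rose. Mural cell markers fell at 7 and rose at 2 of 21 probes in double null hearts (median -0.23), and cardiomyocyte markers fell at 5 and rose at 1 of 16 (median -0.15). Fibroblast markers rose at 3 and fell at 1 of 12 probes (median 0.37). Of 2 lymphatic probes 1 fell, Prox1, while the other, Reln, was higher at an unadjusted p under 0.05 by limma but did not pass. None of 10 macrophage probes passed by limma (0 higher and 2 lower at an unadjusted p under 0.05). Of 9 blood probes 1 rose, Ptprc, and 4 were higher and 0 lower at an unadjusted p under 0.05 by limma (median of the 9 probes 0.84). No blood probe passed in the other groups against wild type. Their blood medians were 0.79 in MuRF1 null MuRF2 het hearts and -0.08 in MuRF1 het MuRF2 null hearts. In double null hearts, counts of 1 in lists of 9 to 16 probes lie near the shares of all tested probes. The 2 lymphatic probes are too few for such a share. Pdpn of the lymphatic markers and Cd3e of the blood markers were above background on no array. The part of cell composition in the values of the members was not tested.

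The named genes most like the members over the 16 arrays were found by Pearson's r among probes above background on at least 12 arrays. For Flt1 they were Cbfa2t3h (0.984), Ptprb (0.982), Lmo7 (0.981), Adcy9 (0.973) and Mmrn2 (0.966), and for Kdr they were Rapgef3 (0.961), Npepps (0.956), Tmem63b (0.954), Prox1 (0.946) and Mmrn2 (0.945). For Tie1 they were Fbxw7 (0.941), Grap (0.938), Adcy9 (0.933), Adcy4 (0.919) and Ablim1 (0.916). Mmrn2 and Ptprb are endothelial genes, and Mmrn2 stood in the lists of both VEGF receptors. For Vegfa, on A_52_P638895, they were Angel2 (0.774), Bhlhb9 (0.764), Rad21 (0.748), Glud1 (0.735) and Dstn (0.727). For Vegfb, on A_51_P458168, they were Srebf1 (0.841), Cnot2 (0.811), Ube2o (0.785), Zfp36l1 (0.765) and Wdr51b (0.763), and for Angpt1, which was below background on 12 arrays, Prepl (0.894), Stard8 (0.875), Sox18 (0.872), Klf9 (0.869) and Tfdp2 (0.864). These coefficients share group differences and array brightness.

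The 250 bases before a transcript start were available from RefSeq (GRCm38.p6) for 9 of the 10 genes, as 10 windows. Of these, 5 overlap the annotated span of their own gene, those of Flt1, Kdr, Nrp1 and Tek and 1 of the 2 Vegfa windows. They were searched on both strands for GGAA (or TTCC), the core bound by ETS factors, a family needed for endothelial genes. They were also searched for ACGTG (or CACGT), 1 form of the core of hypoxia response elements, and other forms such as GCGTG were not counted. GGAA matched 4 times in the Flt1, Kdr and Nrp1 windows, 7 times in Tie1 and 2 times each in Tek and Flt4. Among ligands it matched 6 and 2 times in the Vegfa windows and 1 time each in Vegfb and Vegfc. Of all 32851 promoter windows of this length 93.4% hold it, with a median of 3 matches and 5 or more in 18%, so most of these counts are near the usual. ACGTG matched once, in 1 of the 2 Vegfa windows, and 16.6% of all windows hold it. The Tie1, Vegfa and Vegfb windows, which do not overlap the annotated gene, are printed for a receptor that fell and for ligands whose probes disagreed; capitals mark the GGAA and TTCC matches, and no ACGTG match lies in these windows.
Tie1, chr4:118489850-118490099, minus strand: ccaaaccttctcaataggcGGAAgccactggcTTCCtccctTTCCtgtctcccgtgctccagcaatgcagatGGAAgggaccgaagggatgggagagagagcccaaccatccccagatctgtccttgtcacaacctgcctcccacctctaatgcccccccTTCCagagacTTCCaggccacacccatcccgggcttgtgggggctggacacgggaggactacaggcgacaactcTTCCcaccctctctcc
Vegfa, chr17:46032378-46032627, minus strand: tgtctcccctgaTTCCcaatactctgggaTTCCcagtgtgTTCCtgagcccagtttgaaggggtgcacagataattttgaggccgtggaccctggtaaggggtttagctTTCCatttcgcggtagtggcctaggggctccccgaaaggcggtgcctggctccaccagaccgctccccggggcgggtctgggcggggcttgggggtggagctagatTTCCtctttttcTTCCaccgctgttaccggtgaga
Vegfb, chr19:6987652-6987901, minus strand: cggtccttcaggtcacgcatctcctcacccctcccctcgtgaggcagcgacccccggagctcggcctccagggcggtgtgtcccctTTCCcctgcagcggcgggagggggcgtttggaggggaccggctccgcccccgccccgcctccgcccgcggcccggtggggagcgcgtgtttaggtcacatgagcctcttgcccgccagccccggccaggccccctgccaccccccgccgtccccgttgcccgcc

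A match is a description of the letters in these windows and says nothing of binding in these hearts.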

How the data were processed

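The deposited array files hold, per the file headers, Agilent Feature Extraction output (version 9.1.3.1 for 12 arrays, 9.5.3.1 for 4): the mean spot intensity and median local background intensity in both colours, flags, and the scanner software's own log10 ratio, Cy5 over Cy3. The deposited series matrix holds log2 values; on the 25581 probes whose Feature Extraction ratio was set to 0 on no array, 99.8% of them equal that ratio (log2, tolerance 0.01) minus each probe's median over the arrays. Its column medians were -0.0279 to 0.0238, and the step that made it is not stated in the sources. The labelling protocol names only Cy3, and the channel entries were followed.

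Intensities were processed in R 4.3.3 with limma 3.58.1 (files read by the data.table package, 1.17.8): normexp with offset 50, loess within arrays, control spots (1639) and spots marked as outliers given no weight and left out, and spots of a probe averaged (43379 spots, 41174 probes). Gene names came from the array files; 1 file with 47 names altered by a spreadsheet was named from another. Probes with Cy5 well above background on at least 4 of 16 arrays were tested with lmFit and eBayes over all 16 arrays, 1 mean per group, two-sided, with Benjamini-Hochberg adjustment over all probes tested. The fit was tested on simulated data. Precision is limited by having 4 arrays in a group. Members and gene lists were chosen with earlier results of these data known. Named genes were all members, Trim63 and Trim55, up to 3 genes per list and comparison with the smallest p among those that passed, and the 5 most correlated named genes over the 16 arrays for the brightest probe (highest mean normalised log2 Cy5) of Flt1, Kdr, Tie1, Vegfa, Vegfb and Angpt1. Alternatives covered normalisation, filters, slide, replicate number, depth and left-out arrays. Replicate numbers were taken from the labels, and same-numbered arrays did not deviate together, so they were not treated as pairs. Figures were drawn with matplotlib 3.10.9 in Python 3.11.15.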

Additional observations from a re-analysis of the deposited data

Results flagged for a closer look

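In 3 of 68 sets of 4 arrays (17 probes in 4 groups), 1 array lay apart from its companions by Dixon's test at the 95% level, about the number that chance gives at 1 in 20. Vegfa A_52_P638895 read -0.116 in double null 2, while the other 3 double null arrays read -0.3503 to -0.3426. Flt1 A_52_P307922 read -0.2133 in double null 2, while the others read 0.3076 to 0.3228. Nrp1 A_51_P469285 read -0.1593 in MuRF1 null MuRF2 het 1, while the others read 0.3255 to 0.3806. Double null 2 and MuRF1 null MuRF2 het 1 were the dimmest arrays of the series, with 6037 and 6402 Cy5 probes above background, and the part of their brightness in these values was not tested.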

How the results depend on the processing

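Counts below are of member probes that fell, receptors first, unless named otherwise, and causes were not tested where none is named. For double null against wild type hearts (7 and 4), median centring in place of loess gave 8 and 7, where 8989 of all 16810 tested probes fell. Median centring moved the median of all probes by -0.42 in double null hearts, -0.43 in MuRF1 null MuRF2 het hearts and -0.31 in MuRF1 het MuRF2 null hearts, beside which the receptor median in double null hearts was -0.68. Both counts were 5 and 4 with the Feature Extraction ratio, the series matrix or Cy5 alone, and 6 and 4 with no filter. The counts were 2 and 2 among probes above background on all 16 arrays (fewer probes tested), 4 and 1 with the number of Cy5 probes as covariate, 0 and 0 on slide 1 alone, where no probe of the array passed, and 2 ligands on slide 3 alone. Leaving out each array gave 5 to 7 receptors and 4 ligands. For MuRF1 null MuRF2 het against wild type (2 and 1), the receptor count was 0 with the Feature Extraction ratio, 0 with the series matrix and 0 with no filter. Both counts were 7 and 6 with median centring, where 9346 of all 16810 tested probes fell. They were 1 and 0 with Cy5 alone, 0 and 0 above background on all arrays, 0 and 0 with the covariate, 1 and 0 without the 2 dimmest arrays, 0 and 0 with only these 2 groups, and 0 to 5 each when an array was left out. Median centring reversed Vegfa A_52_P638895 (-0.71), Vegfb A_51_P458168 (-1.44) and Vegfc (-0.59). For MuRF1 het MuRF2 null against wild type (0 and 1), ligands were 0 with Feature Extraction, Cy5 alone and the series matrix, receptors 1 with median centring and 1 with the covariate, and ligands 0 to 1 when an array was left out. Members called higher were 1 with the covariate and 1 without the 2 dimmest arrays (Vegfc in both), 2 with only these groups (Vegfc and Tek), and 0 to 1 with an array left out. For double null against MuRF1 het MuRF2 null (8 and 3), receptors were 5 with Feature Extraction, 4 with median centring, 5 with the series matrix and 5 with the covariate, 2 and 1 above background on all arrays, and 6 to 9 and 3 to 4 with an array left out. For MuRF1 null MuRF2 het against MuRF1 het MuRF2 null (7 and 1), receptors were 0 with Feature Extraction and the series matrix, 2 above background on all arrays and 3 with only these groups; both were 0 with median centring and with the covariate, 2 and 2 with Cy5 alone; ligands were 3 with scaling and 2 with slide as a random block; and leaving out an array gave 0 to 8 and 1 to 2.

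Replicate numbers did not pair the arrays: 24 same-numbered pairs had r of -0.603 to 0.354, and 8 were over 0.1. With the replicate block, double null against wild type gave 6 and 4, and MuRF1 null MuRF2 het against wild type 1 and 0. Probes at background, such as Flt4 and Angpt1, give no level or only a bound.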
